A study of Mus musculus with 2 samples.

Results

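The blood cell microRNA (miRNA) genes followed here in mouse hippocampus were Mir451a, Mir144, Mir451b and Mir486, which are tied to red blood cells, and Mir150, which is tied to lymphocytes. They were chosen by name, as 5 of the 2202 miRNA genes counted, to gauge blood left in the tissue. RNA under 30 nt was sequenced from tissue labelled layer of hippocampus of adult 5xFAD/CAST females, 8 to 10 months old, as biological replicates 1 and 2 of a single group. Both libraries therefore share genotype, sex and age range, and no wild-type or blood sample was analysed here. In 5xFAD mice, human amyloid precursor and presenilin transgenes with familial Alzheimer mutations are driven by the neuronal Thy1 promoter. The replicates have separate sample entries but the same donor entry, so differences between the libraries may be technical. The binomial and Fisher test p-values below compare only these 2 libraries, against counting error alone. The labels do not mention perfusion.

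Mir144 and Mir451a lie side by side and are cut from 1 primary transcript that the transcription factor GATA1 switches on in erythroid cells. Most miRNA hairpins are cut by Drosha and then Dicer, but miR-451a has too short a stem for Dicer and is sliced by Argonaute 2. It is among the most abundant miRNAs of red blood cells, which keep miRNAs after losing their nucleus. miR-486 is made from a gene inside Ank1, which encodes the erythrocyte membrane protein ankyrin 1, and is also abundant in striated muscle. miR-150 is high in mature B, T and NK cells, where the transcription factor Myb is its best known target. Because blood fills the vessels of every organ, these miRNAs can be counted in brain libraries without being made by brain cells. In a bulk library, fewer blood cells and less miRNA per cell cannot be told apart.

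The sequences below show why the strand of a read matters at the Mir451a locus. In the 3 hairpins the capitals mark the mature miRNA, written 5′ to 3′, from RefSeq on GRCm38.p6. Mir144 lies on chromosome 11 from 78073005 to 78073070 on the plus strand, and Mir451a starts after a gap of 99 bp, from 78073170 to 78073241 on the same strand. Mir451b has the same coordinates as Mir451a on the minus strand, so its hairpin is the reverse complement of the Mir451a hairpin.
Mir144 hairpin: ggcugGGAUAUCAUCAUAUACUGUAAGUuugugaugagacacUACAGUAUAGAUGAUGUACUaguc
Mir451a hairpin: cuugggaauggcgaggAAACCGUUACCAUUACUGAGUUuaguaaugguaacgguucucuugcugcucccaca
Mir451b hairpin: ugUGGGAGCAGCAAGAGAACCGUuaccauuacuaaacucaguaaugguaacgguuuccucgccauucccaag
The capitals of the Mir451a hairpin run from its base 17 to its base 38, through the stem and into the loop. Because the hairpin folds back on itself, a run of 16 bases of miR-451a (its bases 2 to 17) also occurs letter for letter in the Mir451b hairpin. A read of those bases alone would match both strands, while the full 22 bases of miR-451a match the Mir451a strand. The genomic spans of the mature miR-451a and miR-451b do not overlap and lie 11 bases apart.

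The mature sequences with the seed in capitals (bases 2 to 8, which pair with targets) share no seed with each other.
mmu-miR-451a: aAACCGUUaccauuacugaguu
mmu-miR-451b: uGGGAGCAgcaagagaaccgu
mmu-miR-144-5p: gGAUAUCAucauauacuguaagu
mmu-miR-144-3p: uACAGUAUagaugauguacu
mmu-miR-150-3p: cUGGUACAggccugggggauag
Each of these 5 seeds occurs in 1 of the 1738 mature sequences of the RefSeq table, so none is shared over all of bases 2 to 8. Shorter matches to a seed were not searched. The counts are per gene and add both arms, so miR-144-5p and miR-144-3p were not told apart. The table has entries for 4 of the 5 genes. Mir486 and miR-150-5p are named only, and the statements on seeds do not cover them.

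The other 2 genes have different neighbours. Mir486 lies on chromosome 8 from 23142555 to 23142682 on the plus strand, in an intron of Ank1 and, on the other strand, of the antisense gene Gm15816. It overlaps Mir3107 (23142573 to 23142662, also called mir-486b) on the minus strand over 90 bp. Mir150 lies on chromosome 7 from 45121757 to 45121821 on the plus strand, outside any other annotated gene, with the non-coding gene Gm45552 95 bp away on its own strand. Coordinates are those of mm10 with annotation M21.

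Replicate 1 held 9962659 reads and replicate 2 held 12761689, of which 3135960 and 4377622 were counted for miRNA genes on their own strand. Levels below are counts per 1000000 of those miRNA gene counts (CPM). Taking 3 counts as the limit of what 0 reads can hide, a gene with none could have reached 0.957 CPM in replicate 1, against 0.685 CPM in the deeper replicate 2. Intervals are exact 95% binomial intervals and, like these limits, cover counting error only. Multimapping reads, 36.3% and 41.7% of all reads, stand outside the gene counts, which makes levels of genes with near-identical copies uncertain. As a check of the tissue, 9 of 13 listed brain miRNA genes had at least 10 counts in each library, and the list summed to 60317 and 59266 CPM. The other 4 were Mir9-2, with 10 and 4 counts, and the 3 gene copies of the neuronal Mir124a, with 0 to 8 counts each. Levels of different miRNAs also depend on how well each sequence is captured in a library, which was not tested.

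Mir150 was the most abundant of the 5 genes by more than an order of magnitude and the most even between the libraries. It had 2518 counts in replicate 1 and 3464 in replicate 2, which are 803 CPM (interval 772 to 835) and 791 CPM (765 to 818). The mean was 797 ± 8.24 CPM (SD, n = 2), rank 105 among all miRNA genes. The ratio of replicate 1 to replicate 2 was 1.01 (interval 0.964 to 1.07), and 13 of 501 genes tested were at least as even. The genes nearest to it in level over the 2 libraries were Mir323 at 818 ± 17.4 and Mir3102 at 816 ± 21.8 CPM.

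Mir451a, the leading red cell miRNA, was present at a low level in both libraries. It had 136 counts in replicate 1 and 139 in replicate 2, or 43.4 CPM (36.4 to 51.3) and 31.8 CPM (26.7 to 37.5). The mean of 37.6 ± 8.21 CPM (SD, n = 2) put it at rank 253. Nearest to it in level were Mir592 at 36.8 ± 4.83 and Mir493 at 35.3 ± 8.25 CPM. Mir150 counts were 18.5 times those of Mir451a in replicate 1 and 24.9 times in replicate 2, a mean of 21.7 ± 4.53 (SD, n = 2). Mir150 counts thus outnumbered Mir451a counts in both libraries. Whether the Mir150 counts came from blood or from other cells of the tissue was not tested.

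Mir486 was close to Mir451a, with 75 counts (23.9 CPM, 18.8 to 30.0) in replicate 1 and 129 counts (29.5 CPM, 24.6 to 35.0) in replicate 2. It averaged 26.7 ± 3.93 CPM (SD, n = 2) at rank 268, between Mir362 at 25.8 ± 4.89 and Mir33 at 28.1 ± 4.15 CPM, the genes nearest to it. The ratio of Mir451a to Mir486 was 1.81 (1.36 to 2.44) in replicate 1 and 1.08 (0.842 to 1.38) in replicate 2, so in replicate 2 a difference between these 2 genes was not detectable at this depth. Its opposite-strand partner Mir3107 had 4 and 1 counts. The labels do not say how reads matching both genes were treated, and multimapping reads stand outside the counts. The level of Mir486 and its split from Mir3107 are therefore uncertain. Because miR-486 is also a muscle miRNA, the muscle list was read beside it. Mir206 was at 24.5 ± 2.72 CPM and Mir499 at 10.5 ± 3.96 CPM, while 5 of 9 muscle genes, all copies of Mir1a and Mir133, had 0 counts. Reads matching more than 1 copy stand outside the counts, so these zeros do not show that the miRNAs were absent. The part of muscle RNA in the Mir486 counts was not tested.

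Among the blood cell miRNA genes with counts, Mir144 differed the most between the libraries. It had 9 counts in replicate 1, which are 2.87 CPM (1.31 to 5.45), and 75 counts in replicate 2, which are 17.1 CPM (13.5 to 21.5). Its mean of 10.0 ± 10.1 CPM (SD, n = 2) has an SD as large as the mean, and 9 counts left it under the limit of 10 counts in each library that Mir451a, Mir486 and Mir150 passed. Mir144 lay below Mir486 in both libraries. Replicate 2 was 5.97 times replicate 1 (2.98 to 13.6).

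Mir451b had 0 counts in both libraries on its own strand. All 136 and 139 counted reads at this position were on the strand of Mir451a. The order of the means was thus Mir150, Mir451a, Mir486, Mir144 and Mir451b, and Mir451a and Mir486 were the neighbours in that order whose intervals overlapped in replicate 2.

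**Figure D1:**
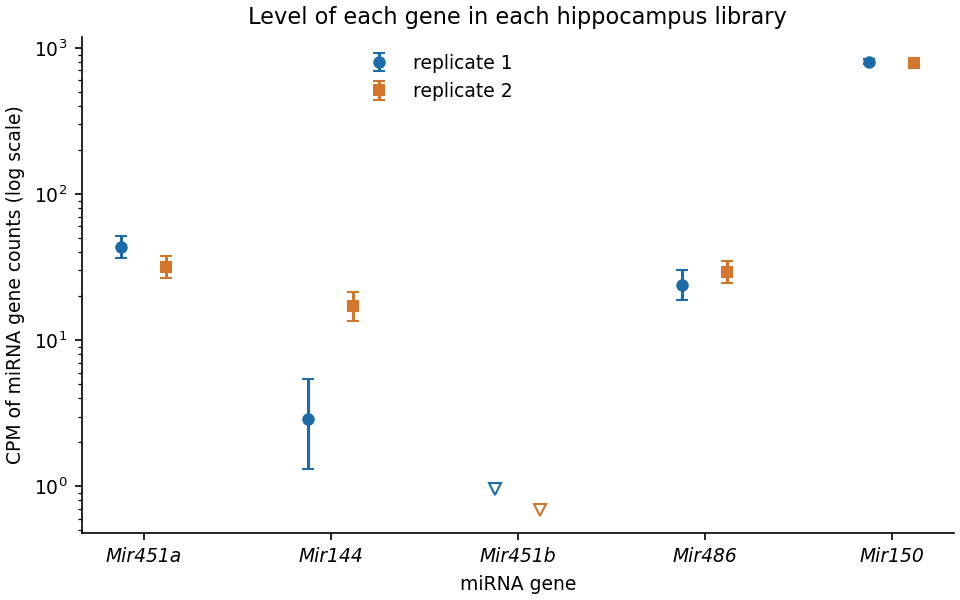
Level of each blood cell miRNA gene in CPM of miRNA gene counts (log scale) in replicate 1 (circles) and replicate 2 (squares), with exact 95% binomial intervals. Open triangles mark the limit that a count of 0 allows for Mir451b; Mir150 sits at 803 and 791 CPM, and Mir144 at 2.87 and 17.1 CPM.

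**Figure D2:**
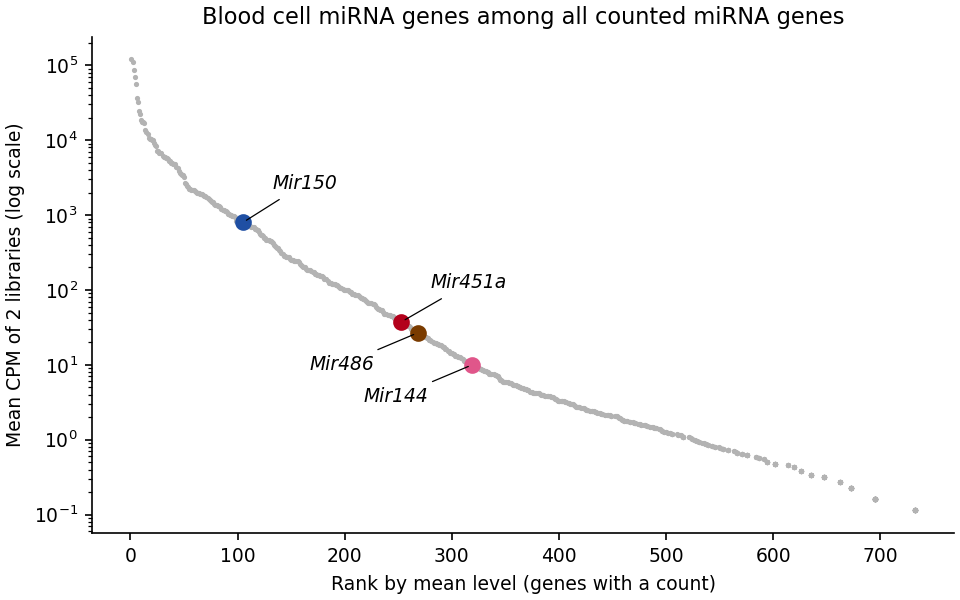
Mean CPM of the 2 libraries (log scale) against rank, for all miRNA genes with a count (grey) and 4 blood cell miRNA genes (coloured). Mir150 stands at rank 105, and Mir451a, Mir486 and Mir144 at ranks 253, 268 and 319.

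Between the libraries, Mir144 and Mir451a moved in opposite directions although they share a transcript. Each gene's counts were compared with an exact binomial test, two-sided, adjusted by Benjamini-Hochberg over the 501 genes with at least 10 counts in all. This test takes counting error alone as its null, and it called 53.3% of all genes at an adjusted p under 0.05. Of the 4 blood genes tested, 2 were called, a share near that background. Mir451a was higher in replicate 1 (log2 ratio of replicate 1 to replicate 2 of 0.45, exact binomial test, adjusted p = 0.0211). Mir144 was lower in replicate 1 (log2 ratio -2.58, adjusted p = 2.08e-09, same exact test). Mir486 (log2 ratio -0.30, exact test, adjusted p = 0.234) and Mir150 (0.02, adjusted p = 0.684, same exact test) were not called. The median log2 ratio was -0.14 over the 4 blood genes and -0.10 over all genes tested.

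The sizes differ more than the calls do. The median gene tested was 1.36-fold apart between the libraries in either direction. Mir451a, at 1.37-fold, and Mir486, at 1.23-fold, were thus within the usual spread. Mir144, at 5.97-fold, was among the 19 of 501 genes furthest apart, and among 4 of the 163 genes with a mean of 5 to 100 CPM. The biological coefficient of variation between the libraries was 0.380 over the same 501 genes. With that spread put into edgeR's exact test, an alternative chosen after seeing the data, 0.599% of genes were called and none of the 4 blood genes was. Mir144 then had an adjusted p of 0.278 and Mir451a of 1 by edgeR. That spread was estimated from the same 2 libraries, so the test counts real differences between them as noise.

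**Figure D3:**
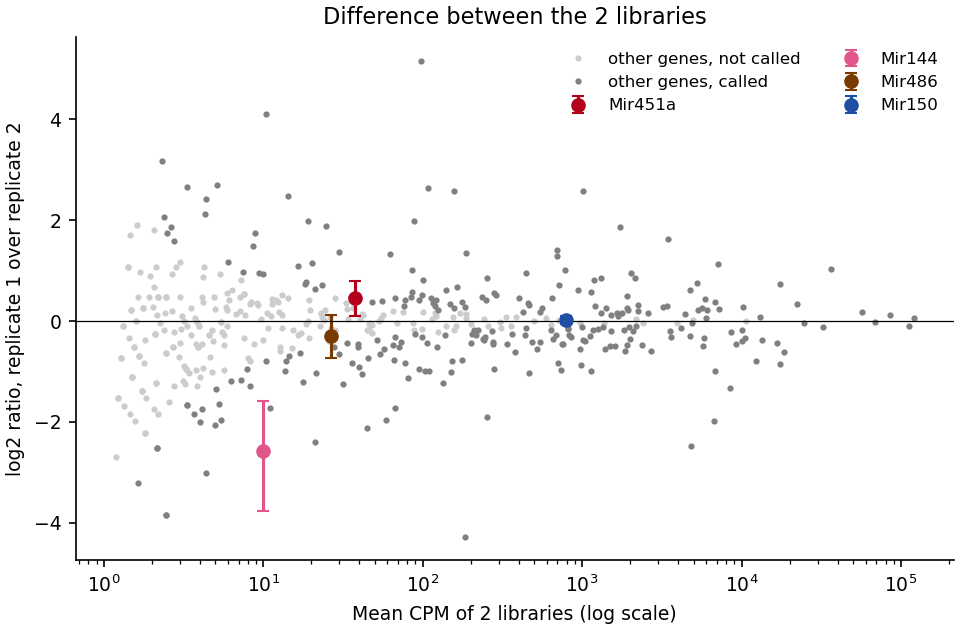
log2 ratio of replicate 1 to replicate 2 against mean CPM (log scale) for tested genes with counts in both libraries. Grey points are other genes, darker where called by the exact binomial test, and coloured points are blood cell miRNA genes with exact 95% binomial intervals; Mir144 lies at -2.58, and Mir150 at 0.02.

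The ratio within the Mir144 and Mir451a cluster was therefore not constant. Mir451a had 15.1 counts for each Mir144 count in replicate 1 (interval 7.73 to 33.8) and 1.85 in replicate 2 (1.39 to 2.49). The intervals do not overlap, and the ratio was 8.15 times higher in replicate 1 (interval 3.85 to 19.2, Fisher's exact test, two-sided, p = 2.66e-11), a test that compares these 2 libraries on counting error alone. The geometric mean of the 2 ratios was 5.29. Of the 2 genes, Mir144 was the further apart (5.97-fold against 1.37-fold), and its level in replicate 1 rests on 9 reads.

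Neighbouring miRNA genes give a scale for that shift. Among 112 pairs of consecutive tested genes within 10000 bp on 1 strand, with counts in both libraries, the ratio within a pair differed between the libraries by a median of 1.46-fold. Mir451a with Mir144 differed the most of all 112 pairs, at 8.15-fold. The next were Mir376c with Mir376b at 5.05-fold and Mir296 with Mir298 at 4.90-fold. Over the 100 pairs whose smallest count was at least 9, 9 being the smallest count of the red cell pair itself, the median was 1.45-fold. These ranks are a description of 2 libraries, and pairs of 1 cluster share genes.

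**Figure D4:**
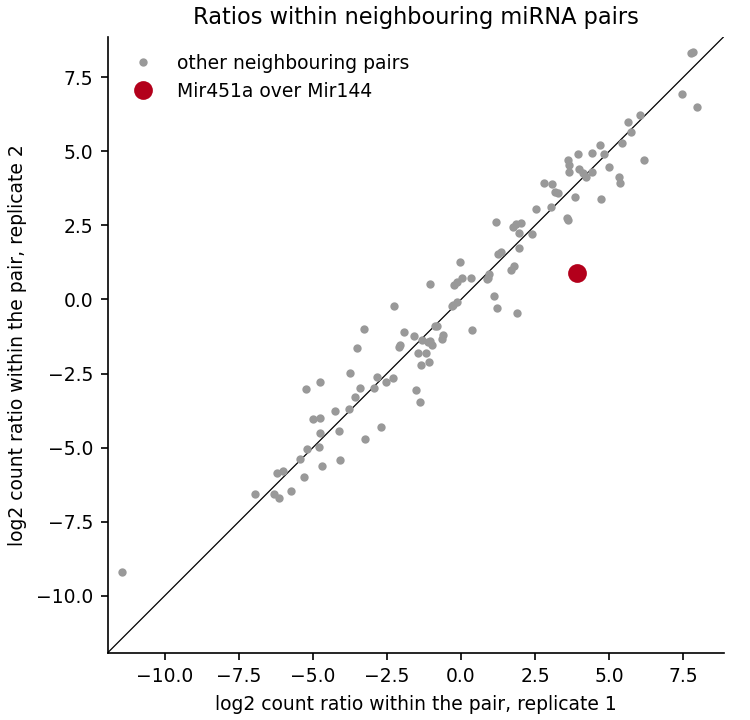
log2 of the count ratio within each of 112 pairs of neighbouring miRNA genes in replicate 1 (horizontal) and replicate 2 (vertical), with the line of equality. Mir451a over Mir144 (red) lies furthest from the line, with ratios of 15.1 and 1.85.

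Mir451a, Mir144 and Mir486 together gave a small gauge of red cell RNA, with a rather even sum from genes that differed in direction. Mir451a was 1.37-fold higher in replicate 1, while Mir144 was 5.97-fold and Mir486, not called, 1.23-fold higher in replicate 2. Together these genes summed to 220 counts in replicate 1 and 343 in replicate 2, or 70.2 and 78.4 CPM. That is 0.00702% (interval 0.00612% to 0.00801%) and 0.00784% (0.00703% to 0.00871%) of the miRNA gene counts. Against Mir150, the red cell sum was 0.0874 (0.0758 to 0.100) in replicate 1 and 0.0990 (0.0884 to 0.111) in replicate 2. The ratio of these was 0.882 (interval 0.736 to 1.06, Fisher's exact test, two-sided, p = 0.180), so a difference was not detectable at this depth. Without Mir144 the ratio was 1.08 (exact p = 0.414). The 5 genes together held 0.0871% ± 0.000244 (SD, n = 2) of the counts, nearly all of it from Mir150.

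The other genes of the lymphoid and myeloid lists were all further apart between the libraries than Mir150, by 1.03-fold for Mir142 to 3.07-fold for Mir21a. Mir142, made across white blood cells and in microglia, was at 245 and 237 CPM, and Mir150 was 3.28 and 3.34 times as high. Mir223, abundant in neutrophils and platelets, was at 7.97 and 7.31 CPM from 25 and 32 counts. Mir155, induced in activated lymphocytes and macrophages, was at 208 and 235 CPM. Mir21a, high in myeloid cells and in many other cell types, was the furthest apart, at 5176 CPM in replicate 1 and 1686 CPM in replicate 2. It sets the sum of the 5 genes of the myeloid and platelet list (7057 and 3797 CPM). Mir146, next in level in that list, went the other way, at 1421 and 1632 CPM. Of the 5 genes of the myeloid and platelet list, 1 was called higher and 2 lower in replicate 1 by the exact binomial test, again near the background share. All 5 genes of the lymphoid list passed 10 counts in each library, and of these 2 were called higher and 1 lower in replicate 1 by the exact binomial test, a share near the 53.3% called over all genes tested. That list also holds Mir181a-1 (563 ± 69.4 CPM), which neurons express too.

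A second set of miRNAs is abundant in red cells but also in other tissue, and here its sum was far above that of the 5 genes. Of 13 listed genes 11 were matched by name and 10 had at least 10 counts in each library, and the 11 summed to 14406 and 16144 CPM. The 2 not matched, Mir92a-1 and Mir92a-2, were counted under other names and are outside that sum. They were Mir92-1, at 298 and 456 CPM, and Mir92-2, at 13.4 and 20.8 CPM. Both were called lower in replicate 1 by the exact binomial test. Mir191 led with 10050 ± 886 CPM, most of the sum, followed by Mir185 at 1688 ± 80.8, Mir93 at 1208 ± 180 and Mir15a at 1135 ± 529 CPM. The genes of the list after Mir15a lay below Mir150, with means from 331 down to 1.21 CPM. By the exact binomial test 2 of the 10 were called higher and 4 lower in replicate 1, again near the 53.3% called over all genes tested.

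Vessel genes did not all move one way. Mir126a, the endothelial miRNA encoded in Egfl7, was lower in replicate 1, at 12521 CPM, than in replicate 2, at 22475 CPM. The smooth muscle genes were higher in replicate 1, as Mir451a was. Mir143 was at 7886 and 6653 CPM and Mir145a at 284 and 212 CPM. Both were called by the exact binomial test, which called 53.3% of all genes tested. Their differences, 1.19-fold and 1.34-fold, were below the median of 1.36-fold over all genes tested. Mir126a counts were 289 times those of Mir451a in replicate 1 (interval 244 to 344) and 708 times in replicate 2 (599 to 842). In plasma work Mir23a is the usual partner of miR-451a for scoring lysed red cells. Here Mir23a counts were 180 times those of Mir451a (152 to 215) in replicate 1 and 335 times (284 to 399) in replicate 2. Mir144 was higher in the library with more Mir126a, and Mir451a in the one with more Mir143; the part of vessel content in either was not tested. The liver miRNA Mir122, which can reach tissue through plasma, was at 28.4 and 38.4 CPM. That was below Mir451a in replicate 1 (43.4 CPM), where their intervals did not overlap, and above it in replicate 2 (31.8 CPM).

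**Figure D5:**
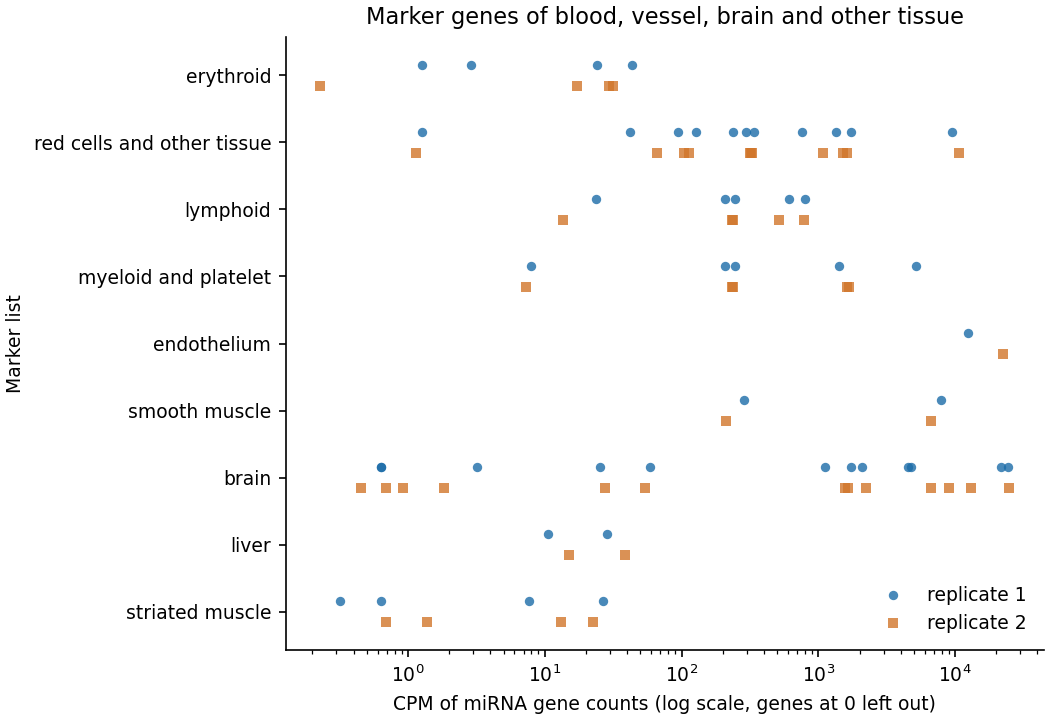
CPM of each marker gene (log scale, genes at 0 left out) by list, in replicate 1 (circles) and replicate 2 (squares). The erythroid genes lie below 50 CPM, while the leading brain and endothelial genes exceed 10000 CPM.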

How the data were processed

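The authors deposited 1 table of unnormalized read counts per library, and the deposited notes name mm10 and annotation M21. The sources used here name no aligner, counter or trimming. Strand roles were read from the values: the column with the larger total (93.4% and 91.9% of both strands) was taken as sense. The 4 summary lines (unmapped 26.5% and 18.1%, no feature 5.72% and 5.91% of reads) stayed out of library sizes. Gene names and positions came from M21. CPM is per 1000000 sense counts of miRNA genes; mature miRNAs are of like length, so no length scaling was applied, and reads were not deduplicated here. Genes and lists were chosen with earlier results of these data known. Named are the 5 genes, overlapping or neighbouring genes, the 2 nearest in log2(CPM + 1) to each member with 10 counts in each library, up to 4 leading genes of each list, and Mir23a. Mir9-2, Mir92-1, Mir92-2, Mir124a, Mir223, Mir376c, Mir376b, Mir296 and Mir298 were named after their values were seen. With 1 group no contrast of conditions was possible. The binomial test across all genes was tested on simulated counts. Tools were Python 3.11.15, scipy 1.17.1, R 4.3.3, edgeR 4.0.16 and DESeq2 1.42.0 (size factors only).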

Additional observations from a re-analysis of the deposited data

Results flagged for a closer look

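In the opposite-strand counts, which the comparisons do not use, the position of Mir451b showed 136 counts in replicate 1 and 139 in replicate 2. Both are above 3 counts, the limit used here to flag such values. They equal the sense counts of Mir451a, which has the same coordinates on the other strand. Mir486 showed 4 opposite-strand counts in replicate 1, also above that limit, and 1 in replicate 2, which equal the sense counts of Mir3107. There is no control sample to set these against.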

How the results depend on the processing

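With TMM or DESeq2 scaling, or count minimums of 1 or 50, Mir451a, Mir144, Mir486 and Mir150 kept their direction and call between the libraries. In these settings 240 to 267 genes were called. TMM and DESeq2 scaling called 52.3% and 52.1% of 501 genes. A minimum of 1 count called 35.3% of 757 genes, and a minimum of 50 counts 69.6% of 345. In the counts without regard to strand Mir451a, Mir451b and Mir486, which overlap a gene on the other strand, had 0 counts. The red cell genes there came to 0.00100% of the sense counts of miRNA genes, the total kept as denominator. The Mir451a to Mir144 ratio was 0, and neither Mir451a nor Mir486 could be tested. Mir144 and Mir150 had the same counts there as on their own strand. On the sense strand, the red cell share was 0.00245% of all reads. Opposite-strand counts of the red cell genes were 7.52e-05% of the sense counts of miRNA genes, not of the opposite-strand total. In an alternative chosen after seeing the data, the red cell share was 0.00643% without Mir144. Pooled counts gave a Mir451a to Mir144 ratio of 3.27, and single replicates 1.85 and 15.1. With the estimated dispersion edgeR called 3 genes in place of 267. The 9 counts of Mir144 in replicate 1 limit every statement on the cluster ratio. Mir451b, at 0 counts, gave no ratio between libraries under any setting. No paired analysis was possible because there is 1 group.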
